A study of Mus musculus with 2 samples.

Results

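The genes described here are those of the interleukin system: the interleukins and colony-stimulating factors, the chains of their receptors, the JAK kinases that the receptors activate and the SOCS proteins that restrain them. Members were chosen by a rule on gene symbols, with Il2rg, the common gamma chain, kept together with its partner chains. Of 95 such genes with a probe on the array, 69 had a value on both arrays and were tested, out of 13506 genes tested in all. Another 12 had a value on a single array, 2 of them on array 1 and 10 on array 2, and 14 had none. The 69 tested genes comprise 29 ligands, 26 receptor chains, 2 inhibitors, 4 kinases and 8 suppressors.

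Colon26 cells, a mouse colon carcinoma line, were placed by injection in the rectal wall of Balb/c mice, beneath the mucosa, and RNA was collected from primary tumours and from their liver metastases. Each of 2 two-colour arrays compared a primary tumour, labelled with Cy5, with a liver metastasis, labelled with Cy3, and the tumours of the arrays were grown independently. All animals received the same cells, and no other genotype, treatment or time is given in the labels. The sources used here do not state which channel is the numerator of the deposited log ratio, so values are called positive or negative and neither side is assigned to the metastasis. Both arrays had the same dye orientation, and a probe's dye bias cannot be told apart from its ratio. In whole tumours, a difference in the number of cells of a type and a difference in RNA per cell cannot be told apart.

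Interleukins are secreted proteins through which leukocytes, epithelium and stroma signal to each other. Most interleukin receptors have no enzyme activity of their own and signal through bound JAK kinases, which phosphorylate STAT transcription factors. STATs in turn induce the SOCS genes, whose products close a feedback loop. Receptors for the interleukin-1 and interleukin-17 families signal instead through adaptors such as Myd88 and Traf3ip2 to the NF-kB and MAP kinase pathways. Many receptors share a chain: Il2rg is part of the receptors for the ligands Il2, Il4, Il7, Il9, Il15 and Il21, and Il6st, also called gp130, is part of those for Il6, Il11, Lif and Osm.

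The promoters of the 3 genes to which the results below return most often are shown first: Il2rg and Il7r, the receptor chains that together form the Il7 receptor and lay on the positive side, and Il33, the member farthest on the negative side. They are the 250 bases before the transcription start in RefSeq's GRCm38.p6 table, which is C57BL/6J sequence, and Il33 has 2 starts there. Capitals mark matches on either strand to TTCNNNGAA, the palindromic core bound by STATs, or to CCGGAA, a core bound by ETS factors.
Il2rg, chrX:101268256-101268505, minus strand: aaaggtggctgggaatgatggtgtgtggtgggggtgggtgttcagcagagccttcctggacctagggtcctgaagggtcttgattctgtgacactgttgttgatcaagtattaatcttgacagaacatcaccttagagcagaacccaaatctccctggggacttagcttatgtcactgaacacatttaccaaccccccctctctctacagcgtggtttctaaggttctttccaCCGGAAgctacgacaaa
Il7r, chr15:9529877-9530126, minus strand: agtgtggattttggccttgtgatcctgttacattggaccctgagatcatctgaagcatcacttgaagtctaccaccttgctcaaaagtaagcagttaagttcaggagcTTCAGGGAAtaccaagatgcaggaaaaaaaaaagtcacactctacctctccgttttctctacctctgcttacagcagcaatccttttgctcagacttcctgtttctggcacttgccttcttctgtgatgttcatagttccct
Il33 first start, chr19:29924863-29925112, plus strand: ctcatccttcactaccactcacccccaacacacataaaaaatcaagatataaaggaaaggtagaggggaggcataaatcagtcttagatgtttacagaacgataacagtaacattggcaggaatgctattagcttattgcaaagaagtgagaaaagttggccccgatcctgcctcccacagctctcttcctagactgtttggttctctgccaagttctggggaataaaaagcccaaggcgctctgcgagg
Il33 second start, chr19:29945540-29945789, plus strand: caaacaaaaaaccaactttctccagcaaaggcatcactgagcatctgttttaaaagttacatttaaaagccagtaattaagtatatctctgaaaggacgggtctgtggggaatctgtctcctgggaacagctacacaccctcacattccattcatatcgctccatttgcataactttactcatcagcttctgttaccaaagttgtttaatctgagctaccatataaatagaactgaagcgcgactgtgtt
The window of Il2rg held a match to CCGGAA from 17 to 12 bases before the start, and that of Il7r a match to TTCNNNGAA from 142 to 134 bases before it. Neither pattern was present in the windows of Il33. Of 32851 windows of the same length, 7.02% held TTCNNNGAA and 12% held CCGGAA. Among the 50 tested members with a window, 7 held the first (Il12rb2, Il19, Il1f5, Il1f9, Il31ra, Il7r and Socs3) and 5 the second (Il1f8, Il20, Il2rg, Il6st and Socs1). These are 14% and 10% of the members, counted per gene with a match in any of its windows. Since 5 members have more than 1 window, these shares and those per window are in unlike units and were not compared. A match is a description of the letters and not evidence of binding.

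As a group the members lay around 0. Of 69 genes, 23 had positive values on both arrays, another 23 had negative values on both and 23 had mixed signs, so that 66.7% kept their sign, against 72.2% of all genes (33.9% positive and 38.2% negative on both). The median of the members' means was 0.01, against -0.02 over all genes. The median distance between the arrays was 0.28 for the members and 0.25 for all genes. A single member, Il2rg, passed an adjusted p of 0.05 in limma's moderated test, on the positive side. That is 1.45% of the members, against 2.9% of all genes, made up of 2.12% positive and 0.777% negative calls. Before adjustment, 14 members had a p under 0.05, here called nominal, 5 positive and 9 negative, or 20.3% against 27.5% of all genes. A distance of at least 1 log2 unit from 0 on both arrays was met by 2 members, Il2rg and Il33, or 2.9% against 2.27% of all genes. The shares of the members thus lay near those of all genes, and the results below concern single genes. With 2 arrays, an exact permutation of signs reaches no two-sided p below 0.5, so each p here rests on the spread that limma borrows from all genes.

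**Figure D1:**
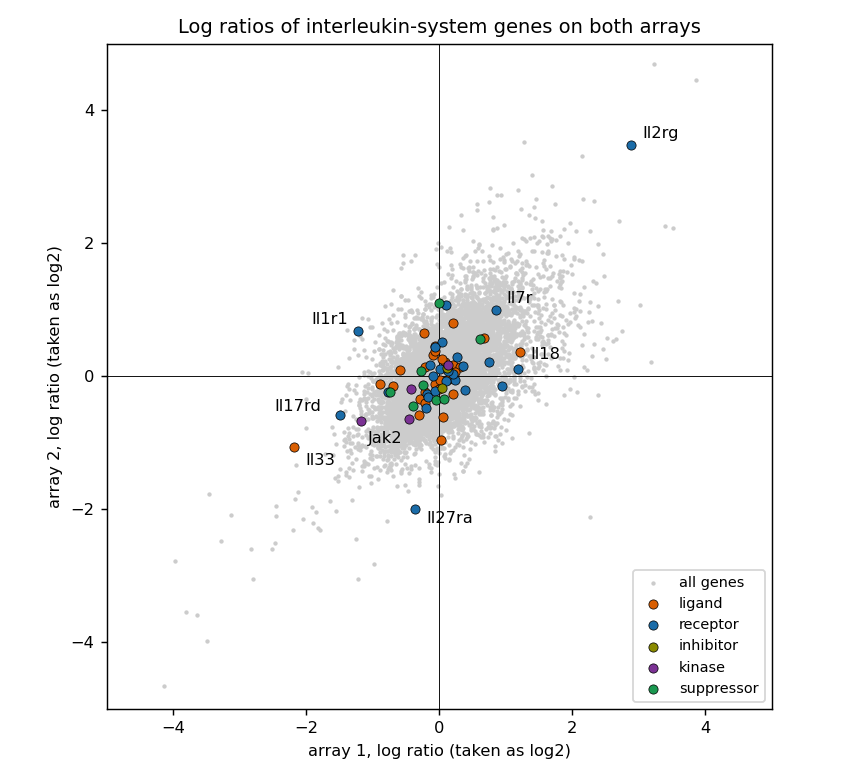
Log ratio on array 1 (horizontal) against array 2 (vertical), taken as log2, for 13506 genes in grey and the 69 interleukin-system genes coloured by role. Il2rg lies alone at 2.89 and 3.48, Il33 lies at -2.18 and -1.07, and most other members lie within 1 unit of 0.

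Il2rg had a log ratio of 2.89 on array 1 and 3.48 on array 2. Both arrays were far on the positive side, and the distance between them was small beside their mean of 3.19 ± 0.42 (SD, n = 2; limma 95% interval 2.67 to 3.70, adjusted p = 0.0214). If the base is 2, this is a 9.09-fold ratio, the third largest on the positive side and the eighth largest on either side among 13506 genes. The call was kept in 6 of 8 alternatives with a test; it was lost after quantile normalization, where limma called 4 genes in all, and without moderation, where it called 0. Beside these 2 alternatives the adjusted p ranged from 0.0233 to 0.041.

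The 3 partner chains of Il2rg with a value on both arrays were positive or mixed and did not pass. Il7r, which pairs with Il2rg to bind Il7 on lymphocytes, had 0.85 and 1.00 on arrays 1 and 2. The arrays were close to each other, at 0.93 ± 0.11 (SD, n = 2; limma 95% interval 0.53 to 1.32), and the adjusted p of 0.0536 lay just above the threshold. Il4ra, the signalling chain for Il4 and Il13, had 0.75 and 0.22, both positive, with a mean of 0.48 ± 0.38 and a limma adjusted p of 0.184. Il2ra, the chain that gives the Il2 receptor its high affinity, had 0.95 and -0.15, so the arrays fell on opposite sides of 0. The interval of Il2rg did not overlap that of any of these 3 chains, whose upper bounds lay at 1.32, 0.97 and 1.13. The same would hold beside most genes, since Il2rg had rank 3 on the positive side among 13506 genes. No conclusion is drawn from it, and the differences between chains were not tested.

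The measured ligands of the gamma chain family had means from -0.46 to 0.16. Il7, a survival factor for lymphocytes made by stroma, had 0.03 and -0.96, which are far apart. Il15, a factor for natural killer and memory T cells, had -0.06 and 0.39, and Il21, a product of helper T cells, had 0.23 and 0.06. Limma's calls among the 3 numbered 0, with 0 nominal, against 2.9% and 27.5% of all genes. Il21 alone kept its sign. Ligand and receptor of the pair Il7 and Il7r therefore had means of -0.46 and 0.93, with the ligand's arrays in disagreement.

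Markers of the leukocytes that carry Il2rg were measured beside it. Of 9 markers of T and NK cells, 3 were positive on both arrays and 1 was negative, against 33.9% and 38.2% of all genes. The other 5 had mixed signs. The median of the 9 was 0.17, with means from -0.16 to 0.99. The highest were Cd2, an adhesion receptor, at 0.82 and 1.16, and Cd5, a regulator of T cell receptor signals, at 0.68 and 1.26. Cd3e and Cd3d, which define T cells, had means of 0.17 ± 0.62 and 0.17 ± 0.33 (SD, n = 2), with a negative value on array 2. Of 6 general leukocyte markers, 3 were positive on both arrays and 1 was negative, against the same 33.9% and 38.2% of all genes. The other 2 had mixed signs. The 6 had a median of 0.16 and a highest mean of 1.28 for Itgb2, an integrin chain. B and plasma cell markers (4 measured) had a median of 0.11, macrophage markers (7) -0.17, neutrophil markers (3) 0.37, dendritic cell markers (5) 0.25 and mast cell markers (4) 0.01. Limma called 1 of the 38 genes of these lists, against 2.9% of all genes. It was the macrophage marker Cd14, negative at -1.43 and -0.96, which kept its call in 1 of 8 alternatives. The 7 macrophage markers did not share its sign: 3 were negative on both arrays, 2 were positive and 2 had mixed signs. The positive ones, Fcgr1 at 0.75 and 1.48 and Cd163 at 0.39 and 0.93, were nominal but not called. Of the 38 markers of all these lists, 13 were nominal, 11 of them positive and 2 negative, against 27.5% of all genes (2023 positive and 1694 negative). Each of these markers had a mean below that of Il2rg. This holds for nearly any gene, since Il2rg had rank 3 on the positive side among 13506 genes, and no conclusion is drawn from it. The part of the markers in the ratio of Il2rg was not tested.

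**Figure D2:**
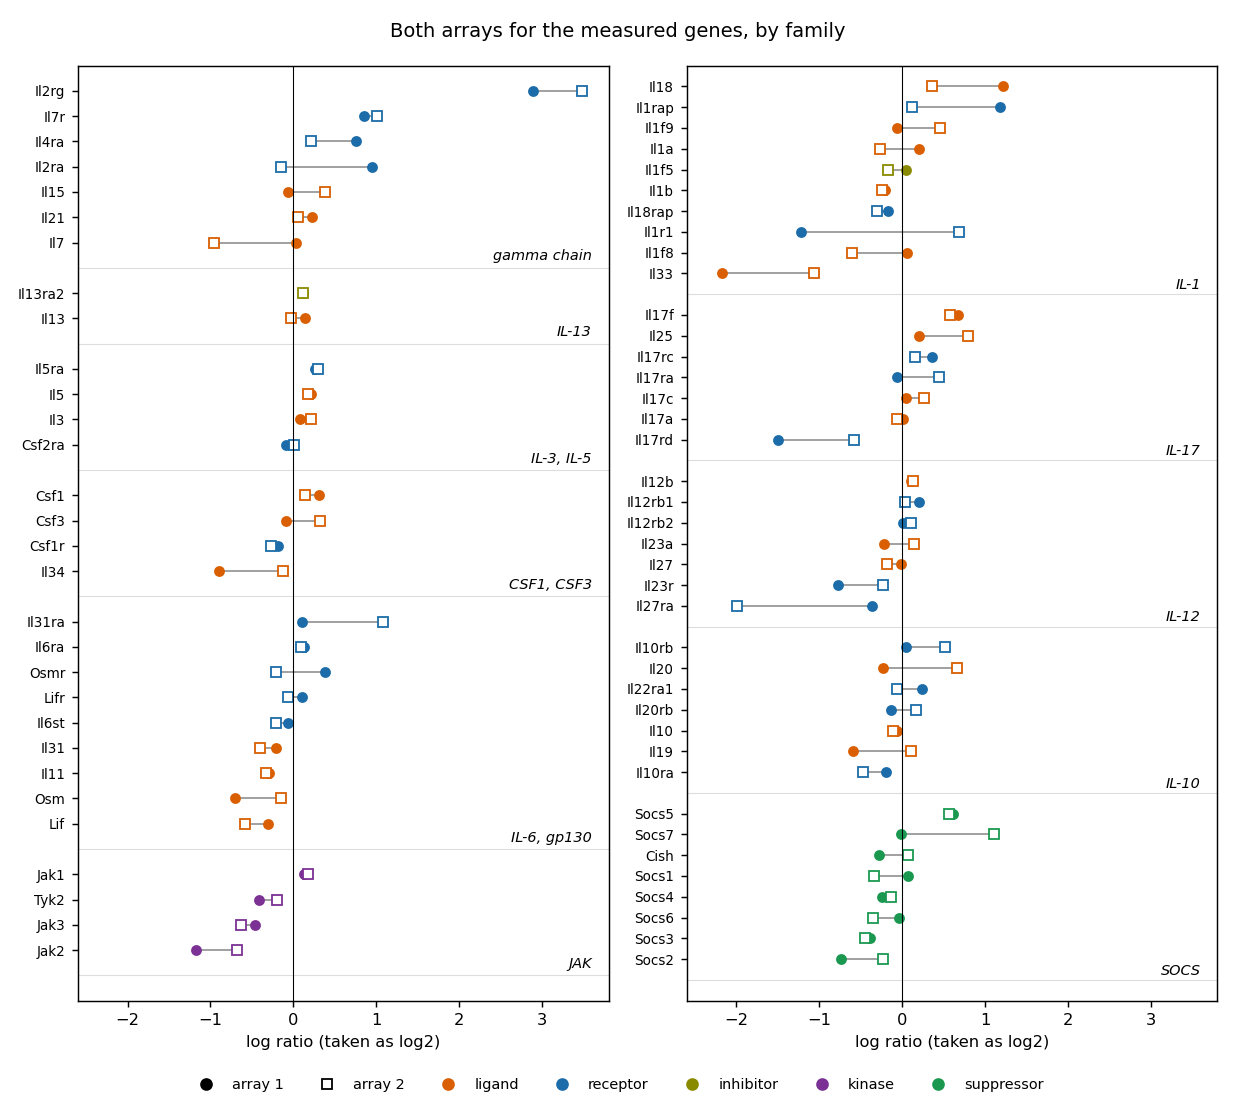
Log ratio, taken as log2, of the 69 genes on array 1 (filled circles) and array 2 (open squares), grouped by family and coloured by role; a line joins the arrays. Il2rg and Il7r have the highest means, and the 4 plotted ligands of the gp130 group are all negative. Wide lines such as that of Il1r1 mark genes on which the arrays disagree.

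The JAK kinases divided. Jak2, the kinase of the receptors for growth hormone, erythropoietin and the Il3 family, had -1.18 and -0.68, both clearly negative, with a mean of -0.93 ± 0.36 (SD, n = 2; limma 95% interval -1.41 to -0.45, adjusted p = 0.0699). Jak3, which associates with Il2rg, had -0.46 and -0.63, with a mean of -0.55 ± 0.12 (adjusted p = 0.115, limma). Thus Il2rg and the kinase bound to it lay on opposite sides of 0 on both arrays. Tyk2, a kinase of the Il12 and interferon receptors, had -0.42 and -0.20, and Jak1, the most widely used partner, had 0.13 and 0.18. None of the 4 was called by limma, a count of 0, while Jak2 and Jak3 were nominal, against 27.5% of all genes.

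Of the 8 SOCS genes, 3 had mixed signs, 4 stayed below 0 and 1 stayed above it. Over all genes, 38.2% stayed below 0 and 33.9% above it. Socs3, the inhibitor induced by gp130 receptors, had -0.39 and -0.45, arrays that nearly coincide. Socs2, a regulator of growth hormone signals, had -0.74 and -0.24. Both were negative throughout, with means of -0.42 ± 0.04 and -0.49 ± 0.35 (SD, n = 2) and adjusted p of 0.162 and 0.177 in limma's test. Socs5 was the member on the other side, with 0.61 and 0.56, a mean of 0.59 ± 0.03 (adjusted p = 0.101, limma). Socs7 had -0.01 and 1.10, so its mean of 0.55 came from array 2. Cish, the STAT5-induced member, had -0.28 and 0.07, Socs1, the inhibitor of interferon signals, 0.07 and -0.34, and Socs4 -0.24 and -0.14. Socs6 was the 1 member with 2 probes, and their average was -0.05 on array 1 and -0.35 on array 2. Its first probe was negative on both arrays, at -0.20 and -0.49, and its second had mixed signs, at 0.11 and -0.21. Limma's calls in this family numbered 0, and 3 of the 8, Socs2, Socs3 and Socs5, were nominal, against 27.5% of all genes.

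**Figure D3:**
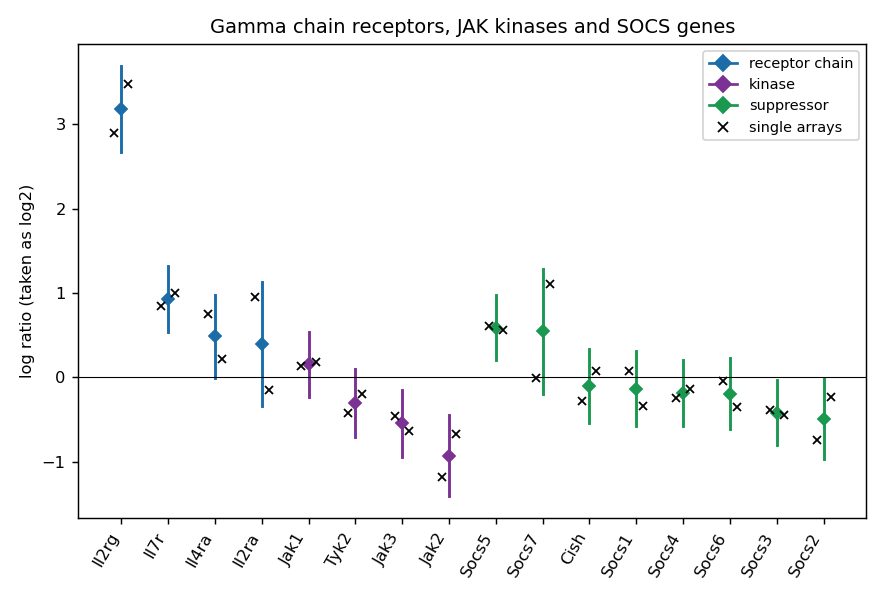
Mean log ratio, taken as log2 (diamonds), with the 95% interval of limma's moderated fit (bars) and the values of arrays 1 and 2 (left and right crosses), for the gamma chain receptors, the JAK kinases and the SOCS genes. The interval of Il2rg, 2.67 to 3.70, stands apart from the others. It would do so beside most genes, since Il2rg had rank 3 on the positive side among 13506. The intervals of Il7r, Jak2, Jak3, Socs2, Socs3 and Socs5 leave out 0 although none of these 6 passed after adjustment.

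All 4 tested members grouped here as ligands of the gp130 group were negative on both arrays, against 38.2% of all genes. The pattern depends on the grouping, which counts Il31. Clcf1 and Ctf1, gp130 ligands outside the member rule, had mixed signs, at 0.48 and -0.39 and at 0.16 and -0.27. Lif, a factor of stem cells and of the acute phase response, had -0.31 and -0.58, and Osm, oncostatin M, a product of myeloid cells, had -0.70 and -0.15. Il11, a stromal factor, had -0.29 and -0.33, and Il31, a T cell product that signals through Il31ra and Osmr, had -0.21 and -0.40. The values were small, with means from -0.44 to -0.30. Limma's calls numbered 0, against 2.9% of all genes. Lif was the 1 nominal gene (limma's unadjusted p = 0.0398, adjusted p = 0.165), against 27.5% of all genes. Of the 5 measured receptor chains of this group, 1 was negative on both arrays, 2 were positive and 2 had mixed signs. Il6st, the shared chain, had -0.07 and -0.22, Il6ra, the Il6-binding chain, 0.13 and 0.09, Lifr 0.10 and -0.07, and Osmr 0.38 and -0.21. Il31ra, the Il31-binding chain, had 0.10 and 1.08, so that its mean of 0.59 ± 0.69 (SD, n = 2) rested on array 2.

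In the interleukin-1 family the ligands spread to both sides. Il33, an alarmin stored in the nuclei of endothelial, epithelial and stromal cells, had -2.18 and -1.07. Both arrays were at or beyond 1 unit, although they differed by 1.11 from each other, and the mean was -1.62 ± 0.79 (SD, n = 2; limma 95% interval -2.36 to -0.88, adjusted p = 0.0587). If the base is 2, this is a 3.08-fold ratio. Markers of the cell types that store it were measured too. Of 6 endothelial markers, 5 were positive on both arrays and 0 negative, against 33.9% and 38.2% of all genes, with a median of 0.45. Limma called 2 of the 6 on the positive side, against 2.12% of all genes. These were Flt1, a VEGF receptor, and Robo4, an endothelial guidance receptor, with means of 1.25 and 1.04. Each kept its call in 2 or fewer of 8 alternatives. Of 5 epithelial markers, 1 was positive on both, 2 were negative and 2 had mixed signs, with a median of 0.13 and 0 called. Of 5 fibroblast markers, 0 were positive on both, 3 were negative and 2 had mixed signs, with a median of -0.24. The collagen gene Col1a1 was called at -2.93. The remaining fibroblast markers did not share a ratio of this size and were not called. Their means were -0.40 for Col3a1, -0.24 for Col1a2, -0.01 for Fap and 0.19 for Pdgfra. Markers of host liver cells were also measured, with 0 called. Of 6 hepatocyte markers, 2 were positive on both arrays, 3 were negative and 1 was mixed, with a median of 0.08. Before adjustment 3 of the 6 were nominal, 2 positive and 1 negative, against 27.5% of all genes. Of 3 Kupffer cell markers, 1 was positive and 2 were mixed, with a median of 0.06 and 0 nominal. The part of these lists in the ratio of Il33 was not tested. Il18, which drives interferon gamma production, was on the other side with 1.21 and 0.36, a mean of 0.79 ± 0.60 (adjusted p = 0.128, limma). Il1b, the main secreted ligand of macrophages, had -0.21 and -0.24, close together and near 0. Il1a had 0.20 and -0.26, Il1f8 (interleukin-36 beta) 0.06 and -0.61, Il1f9 (interleukin-36 gamma) -0.07 and 0.46, and the antagonist Il1f5 0.04 and -0.17, all with mixed signs.

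The receptors of that family included the member on which the arrays disagreed most. Il1r1, the signalling receptor for Il1a and Il1b, had -1.22 on array 1 and 0.68 on array 2, a distance of 1.90. Il1rap, the accessory chain shared by the receptors for Il1 and Il33, had 1.18 and 0.11, and Il18rap, the accessory chain for Il18, had -0.17 and -0.30. In the whole family of 10, the calls by limma numbered 0, and 2 genes, Il33 and Il18, were nominal, against 27.5% of all genes.

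The signalling partners of the interleukin-1 and interleukin-17 receptors were taken from a list chosen with earlier results of these data known. Of these partners, 11 were measured: 8 stayed below 0 on both arrays, 1 stayed above it and 2 had mixed signs. Over all genes, 38.2% stayed below 0 and 33.9% above it. The positive partner was Casp1, the protease that cuts the precursors of Il1b and Il18 into their active forms, which had 1.82 and 1.48. It passed in limma's test with a mean of 1.65 ± 0.24 (SD, n = 2; 95% interval 1.22 to 2.08, adjusted p = 0.0303) and kept its call in 6 of 8 alternatives. Of its substrates, Il18 was positive on both arrays and Il1b negative on both. The partners farthest from 0 on the negative side were Sigirr, an inhibitory receptor of the family, at -0.82 and -0.70, Tollip, an inhibitor of Irak1, at -0.55 and -0.66, and Tab1, an activator of the kinase Map3k7, at -0.41 and -0.86. Their adjusted p in limma's test were 0.0696, 0.0974 and 0.116. The median of the 11 partners was -0.22, against -0.02 over all genes. Limma called 1 of the 11 and 4 were nominal, against 2.9% and 27.5% of all genes.

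Of the interleukin-17 ligands 3 were positive on both arrays, against 33.9% of all genes, and 1 had mixed signs. Their receptors divided. Il17f, a product of Th17 cells, had 0.67 and 0.57, with a mean of 0.62 ± 0.07 (SD, n = 2; limma adjusted p = 0.093). Il25, the epithelial member of the family, had 0.20 and 0.80, Il17c 0.04 and 0.26, and Il17a, the founding member, 0.01 and -0.06. Il17f and Il17a, both known as products of Th17 cells, thus had means of 0.62 and -0.03, a difference that was not tested. Il17rd, a receptor also known as Sef for its inhibition of FGF signals, had -1.50 and -0.58, with a mean of -1.04 ± 0.65 (limma adjusted p = 0.0926). Il17rc and Il17ra, which together bind Il17a and Il17f, had 0.36 and 0.16, and -0.06 and 0.44. Calls by limma numbered 0 among the 7, and Il17f and Il17rd were nominal, against 27.5% of all genes.

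Receptors of the interleukin-12 family included the wide but uneven ratio of Il27ra, the ligand-binding chain for Il27, which had -0.36 on array 1 and -1.99 on array 2. Both were negative, but the spread was nearly as large as the mean of -1.17 ± 1.15 (SD, n = 2; adjusted p = 0.146 in limma's test). Il23r, the specific chain for Il23, had -0.77 and -0.24, with a mean of -0.50 ± 0.38 (limma adjusted p = 0.176). The chains of the Il12 receptor were near 0, Il12rb1 with 0.20 and 0.03 and Il12rb2 with 0.01 and 0.11. So were the ligand subunits, Il12b, shared by Il12 and Il23, with 0.11 and 0.13, Il27 with -0.01 and -0.19, and Il23a with -0.22 and 0.14. There were 0 calls by limma, and Il27ra and Il23r were nominal, against 27.5% of all genes.

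The interleukin-10 family stayed within 0.34 of 0 in its means. Il10, which restrains macrophages, had -0.06 and -0.11, and its binding chain Il10ra had -0.20 and -0.48. Il10rb, the chain shared with Il22 and the lambda interferons, had 0.04 and 0.52. The other 4 members had mixed signs: Il19 with -0.59 and 0.10, Il20 with -0.23 and 0.66, Il20rb with -0.14 and 0.17, and Il22ra1 with 0.24 and -0.06. By limma 0 of the 7 were called and 0 were nominal, against 2.9% and 27.5% of all genes.

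The 10 tested growth factors of myeloid cells, type 2 cytokines and receptors for them had means from -0.51 to 0.28. Csf1, the macrophage growth factor, had 0.31 and 0.14, and Il34, the other ligand of the same receptor, had -0.90 and -0.12, while the receptor Csf1r had -0.19 and -0.27. The ligands of Csf1r thus lay on opposite sides on both arrays, with means of 0.23 and -0.51. Csf3, the neutrophil growth factor, had -0.09 and 0.32. Il5, the eosinophil factor, had 0.21 and 0.17, and its receptor chain Il5ra 0.26 and 0.29. Il3 had 0.08 and 0.21, and Csf2ra, the binding chain for the granulocyte-macrophage factor, -0.09 and 0.01. Il13 had 0.14 and -0.04, and Il13ra2, a decoy receptor for it, 0.12 on both. Of these 10 genes, limma called 0 and 0 were nominal, against 2.9% and 27.5% of all genes.

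Other genes of JAK and STAT signalling were taken from a list chosen with earlier results of these data known. Of 29 partners (STATs, related ligands and receptors, phosphatases, PIAS proteins and adaptors), 10 stayed below 0 and 9 above it on both arrays, against 38.2% and 33.9% of all genes. Of the 29, 6 were nominal, against 27.5% of all genes, and the calls by limma numbered 0. The partners farthest from 0 on their weaker array were Ptpn6, the phosphatase SHP-1 of blood cells, at 0.64 and 0.77, Stat6, the transducer of Il4 and Il13, at -0.53 and -0.47, Epor, the erythropoietin receptor, at 0.45 and 0.44, and Ifng, interferon gamma, at 0.83 and 0.42. Their adjusted p in limma's test lay between 0.0801 and 0.148. Of 14 genes known as STAT targets, 9 stayed below 0 and 4 above it, against 38.2% and 33.9% of all genes. Limma called 2 of the 14, against 2.9% of all genes. Bcl6, a transcriptional repressor, had 1.05 and 1.10 (mean 1.07 ± 0.03, SD, n = 2; adjusted p = 0.0439 in limma's test), and Pim3, a survival kinase, had -1.23 and -1.03 (mean -1.13 ± 0.14; adjusted p = 0.0438). Each kept its call in 3 of 8 alternatives. Tbx21, the regulator of Th1 cells, had -0.35 and -0.65, and Junb, a part of AP-1, -0.36 and -0.39, neither past the threshold. Over the pathway lists together 3 of 54 genes were called, 2 positive and 1 negative, against 2.9% of all genes.

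Beside the 69 tested genes, 12 members had a value on 1 array only, and 11 of these values were positive. On array 1 these were Il4, the main type 2 cytokine, at 1.90 and Il12a at 1.50. On array 2 they were Il17rb, a receptor for Il25, at 2.83, Il1f10 at 2.26, Il17re, a receptor for Il17c, at 1.98, Il2 at 1.88, Il1rapl2 at 1.55, Il18r1 at 0.98, Il9r at 0.85, Il17d at 0.36, Il16 at 0.34 and Il15ra at -0.67. These values have no replicate. They also resemble those of other probes valued on a single array. Of 596 named probes with a value on array 1 only, 90.1% were positive and 47.5% were at 1 or more, and of 924 on array 2 only, 81.5% were positive and 39.1% at 1 or more. Among the 13685 named probes with a value on both, 47.6% and 47.4% were positive on arrays 1 and 2, and 4.29% and 4.48% were at 1 or more. The positive side of the 12 members is therefore shared with single-array probes at large. The 14 members with no value were Csf2, Csf3r, Il13ra1, Il17b, Il1f6, Il1r2, Il1rapl1, Il1rn, Il20ra, Il21r, Il22ra2, Il24, Il6 and Il9. They are not analysed here.

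**Figure D4:**
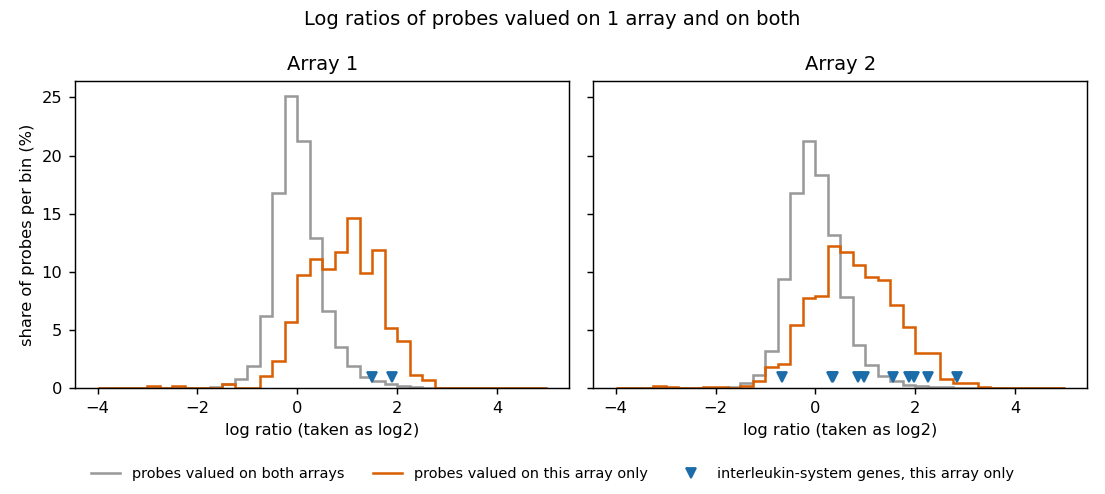
Share of named probes per bin of log ratio, taken as log2, on each array, for probes valued on both arrays (grey) and on that array only (orange); triangles mark the 2 and 10 interleukin-system genes valued on array 1 only and array 2 only. The orange curves are shifted to the positive side, with medians of 0.94 and 0.74, and 11 of the 12 triangles lie above 0.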

How the data were processed

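Log ratios of 2 two-colour arrays, each a primary tumour against a liver metastasis, were taken from the deposited value table. The deposited values were taken as log2; the authors' log base, numerator channel, background correction, spot filter and normalization were not given in the sources used here, and the table has no intensities. Symbols come from the platform annotation and were brought to current names through the GRCm38.p6 RefSeq table (12622 probes current, 3947 updated, 62 kept as given). Probes with a value on both arrays (18837 of 23473) were averaged per gene.

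For 13506 genes, limma 3.58.1 (R 4.3.3) compared the mean ratio with 0, by lmFit and eBayes with 1 residual and 4.06 prior degrees of freedom, with Benjamini-Hochberg adjustment over all genes, a threshold of 0.05 and the SD of the arrays as error. The scripts were tested on simulated data. Figures used matplotlib 3.10.9. Members and gene lists were chosen with earlier results of these data known. Named are the called members, all gamma chain receptors, JAK and SOCS genes, per other family and role up to 4 genes of one sign by their weaker array, and pathway genes called or up to 4 per list; members of mixed sign were added so that each is accounted for. The marker genes of immune cells named beside Il2rg, and the remaining ones of other lists, were chosen after their values were seen. Alternatives were median centring, scaling to equal spread, quantile normalization, a fit on probes, no filter on missing values, a minimum fold of 1.2, a robust prior, no moderation, and each array alone. The number of arrays limits the precision.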

Additional observations from a re-analysis of the deposited data

How the results depend on the processing

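Of 96 named genes followed through the 8 alternatives with a test, 3 changed sign, all with means near 0. These were Il17a, at 0.0002, and Il1a, at 0.0007, after scaling, and Il20rb, at -0.0014, after quantile normalization. Clcf1, Ctf1 and the fibroblast markers besides Col1a1 were not among the 96. In each alternative 87 or more kept their direction and their side of the threshold. The number of called members was 1 in the main analysis and under median centring, scaling, a fit on probes, a minimum fold of 1.2 and a robust prior. It was 0 after quantile normalization and without moderation, and 10 without the filter on missing values, where 7 genes valued on a single array were called with a borrowed spread, beside Il2rg, Il33 and Il7r. Of all genes, 391 were called; the number was 190 after scaling, 4 after quantile normalization, 1041 without the filter, 108 with a minimum fold of 1.2, 0 without moderation and 161 in the fit on probes. Of the pathway genes, 3 were called; the number was 1 after scaling, with a minimum fold of 1.2 and in the fit on probes, and 0 after quantile normalization and without moderation. The cause of these losses was not tested, except that 1 residual degree of freedom is left without moderation. The median of the members, 0.013, was 0.037 after centring, 0.032 after scaling, 0.091 without the filter and -0.0014 after quantile normalization, and it ranged from -0.01 to 0.012 with a single array. Each log ratio compares a primary tumour with a liver metastasis on the same array, so the test against 0 works within arrays. No further pairing was possible because the labels give a single group of arrays.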

Other observations

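Jak2 and Il33, the kinase and the ligand farthest on the negative side, lie near each other on chromosome 19 in the RefSeq gene order. This was noticed after their values were seen. Of the coding genes between them, 6 had a value on both arrays: 3 were negative on both (Cd274, the checkpoint ligand PD-L1, at -0.48 ± 0.10 (SD, n = 2), Ermp1 at -0.54 ± 0.01 and 9930021J03Rik at -0.53 ± 0.01), 2 were positive on both (Insl6 at 0.92 ± 0.63 and Plgrkt at 0.52 ± 0.48) and Ric1 had mixed signs at 0.04 ± 0.17. Limma called 0 of the 6, and 4 had a p under 0.05 before adjustment, against 27.5% of all genes.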
